A study of Mus musculus with 13 samples.

Results

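The replication-dependent histone genes were followed in RNA-seq libraries of 13 single mouse oocytes. All features of the deposited FPKM table whose symbol starts with Hist1h, Hist2h, Hist3h or Hist4h were taken as members, which gave 69 of 49686 features, and the same 69 were among the 18939 features of the count tables. They comprised 6 H1, 20 H2A, 18 H2B, 12 H3 and 13 H4 genes. By the annotation used here (GENCODE M21, GRCm38), 56 lie in the Hist1 cluster on chromosome 13, 10 in the Hist2 cluster on chromosome 3, 2 in Hist3 on chromosome 11 and 1 in Hist4 on chromosome 6, and 67 are protein coding. The GV oocytes were 3 of the NSN and 3 of the SN kind, and the MII oocytes 3 of the NSN-MII and 4 of the SN-MII kind, where NSN (non-surrounded nucleolus) and SN (surrounded nucleolus) name the 2 chromatin types of the germinal vesicle (GV) oocyte, and MII is the metaphase II oocyte that each type gave after maturation in culture. In all 4 groups, oocytes of C57BL/6 females aged 3 to 4 weeks, taken 48 h after PMSG, had been injected with FBL–GFP mRNA, held at the GV stage with Cilostamide for 6 h and typed by the nucleolar pattern of FBL–GFP. The type was thus read in living oocytes from a tagged nucleolar protein, and a library labelled NSN-MII or SN-MII carries the type its oocyte had at GV. The labels do not tie libraries to females, so p-values measure the spread between single oocytes.

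Replication-dependent histones package DNA that has just been copied, and their genes lie in clusters as many near-identical copies. In dividing cells their mRNAs end in a conserved stem-loop, bound by the stem-loop binding protein SLBP, and not in a poly(A) tail. The growing oocyte stores histone mRNA and protein for the embryo, and some copies can also be made with a poly(A) tail from a signal farther downstream. SMART-seq2 starts cDNA synthesis on poly(A), so it records the polyadenylated or internally primed part of these mRNAs. A change in the number of molecules and a change in their poly(A) tails cannot be told apart here.

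The stem-loop is the element that separates these mRNAs from others, so it is shown for 1 or 2 members of each class among the 3 with the highest mean level. A search of the GENCODE M21 transcripts, sense strand only, for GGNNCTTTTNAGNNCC found it in 44 of the 69 members (63.8%), against 72 of 21901 protein coding genes (0.329%). A match is a description of the sequence, and a model with no match may simply stop short of the element. Capitals mark the 16 bases of the motif.
Hist1h4h: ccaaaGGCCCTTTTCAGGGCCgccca
Hist1h2bk: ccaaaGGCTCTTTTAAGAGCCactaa
Hist2h2aa1: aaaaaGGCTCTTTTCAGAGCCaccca
Hist3h2ba: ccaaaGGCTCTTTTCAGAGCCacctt
Hist2h3c2: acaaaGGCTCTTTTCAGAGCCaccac
Hist1h1c: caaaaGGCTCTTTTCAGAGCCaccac
The H4 copy differs from the others in the stem, whereas Hist2h2aa1, Hist3h2ba, Hist2h3c2 and Hist1h1c hold the same 16 bases. Of the 69 annotated models, 21 ended within 100 bases of the motif, 21 ran more than 100 bases past it, 22 held no motif, and 5 were spliced, all of them H2B genes.

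The most abundant member, Hist1h2bc, belonged to the spliced kind. Its model has a first exon of 423 bases (chr13:23684199-23684621, plus strand), an intron of 7554 bases and a second exon of 733 bases (chr13:23692176-23692908), and the splice junction lies 9 bases after the stop codon. The junction is shown because it leaves the second exon as the 3′ UTR of this mRNA. The sequence runs from the stop codon across the junction, with the first bases of exon 2 in capitals.
Hist1h2bc junction: tgatcctgccaaGAGGAGCAGACCTGACAT

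Promoters of 61 members were matched in the RefSeq table (GRCm38.p6), as 300-base windows that start 250 bases before the gene start. The letters of the TATA box (TATAAA, either strand) were present at any position of the window in 57.4% of them, against 14.2% of 27025 promoters. A match at any position does not show a TATA box in use. CCAAT (either strand) was found in 85.2%, against 37.9%. It was in all matched H1, H2A, H2B and H3 promoters but in only 3 of 12 H4 promoters (25.0%). The octamer ATTTGCAT (either strand) was held by 13 members, 7 of 17 H2A and 6 of 16 H2B genes, and by none of the H1, H3 or H4 promoters, and its share of 21.3% stood against 1.75% of all promoters. Hist1h2bk, the second H2B gene by level, held the letters of all 3 motifs. The 250 bases before its start (chr13:22035571-22035820, plus strand) are printed with the motifs of either strand in capitals. TATAAA is there only as its reverse complement, TTTATA.
Hist1h2bk promoter: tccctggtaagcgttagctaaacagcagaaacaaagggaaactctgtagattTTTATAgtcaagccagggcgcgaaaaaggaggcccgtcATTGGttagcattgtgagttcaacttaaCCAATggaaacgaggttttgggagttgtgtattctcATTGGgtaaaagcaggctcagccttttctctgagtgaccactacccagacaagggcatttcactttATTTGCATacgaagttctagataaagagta

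Total estimated counts lay between 7140416 and 8846287 per library, and between 22 and 45 members had a count in a given library. The library NSN-MII replicate 3 had the fewest members with a count, 22, and it alone set the lower limit of 0 at MII for Hist1h4h, Hist1h4i, Hist1h2bk and Hist1h3g. Without it, those limits were 1.21, 0.42, 3.71 and 0.69 FPKM, and the log2 fold changes between stages were -3.47, -2.67, -2.40 and -3.33, each still called. All 13 oocyte markers, such as Gdf9 and Zp3, were above 1 FPKM in every library. Of 20 markers of cumulus and granulosa cells, which surround the oocyte, 11 never exceeded 1 FPKM and Foxl2, Ptx3 and Lhcgr were at 0 throughout. Their summed level was 33.9 to 39.8 FPKM at GV and 40.3 to 66.4 FPKM at MII, most of it Cyp19a1 (16.8 to 53.1 FPKM), so it was higher at the stage where histone mRNAs were lower. The part of these markers in the results was not tested.

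At GV, the members together reached 641 ± 137 FPKM (SD, n = 6), and at MII 193 ± 36.6 FPKM (n = 7), a ratio of 3.32. FPKM is a count scaled by gene length and library size, and it is the scale on which levels are compared between genes here. Its total over all features was 654206 to 767205 per library at GV and 560705 to 577278 at MII. Ratios of GV to MII in FPKM include this difference and were not rescaled for it. H2B and H2A genes led at GV, with summed levels of 254 ± 59.8 and 234 ± 71.4 FPKM. H3 genes reached 67.9 ± 15.5, H4 genes 61.6 ± 16.9 and the linker histone H1 genes 23.3 ± 7.68 FPKM. H2A and H2B, and likewise H3 and H4, differed from each other by less than their spread over the GV libraries. At MII, H2A genes summed to 80.0 ± 13.1 FPKM, followed by H2B with 58.2 ± 25.0, H3 with 35.6 ± 9.03, H1 with 10.9 ± 3.03 and H4 with 8.40 ± 5.13. There, H1 and H4 differed by less than the SD of either. H2A and H2B differed by less than the SD of H2B but by more than that of H2A. The class sums were higher at GV by ratios of 7.33 for H4, 4.37 for H2B, 2.93 for H2A, 2.13 for H1 and 1.91 for H3. On this scale, GV and MII libraries did not overlap for H2A, H2B, H3 or H4. The lowest GV oocyte of H3 held 50.6 FPKM and the highest MII oocyte 47.9. With FPKM totals higher at GV, this narrow gap is no clear separation. For H1 they overlapped, since SN GV replicate 3 held 14.7 and NSN-MII replicate 2 held 15.8 FPKM.

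**Figure D1:**
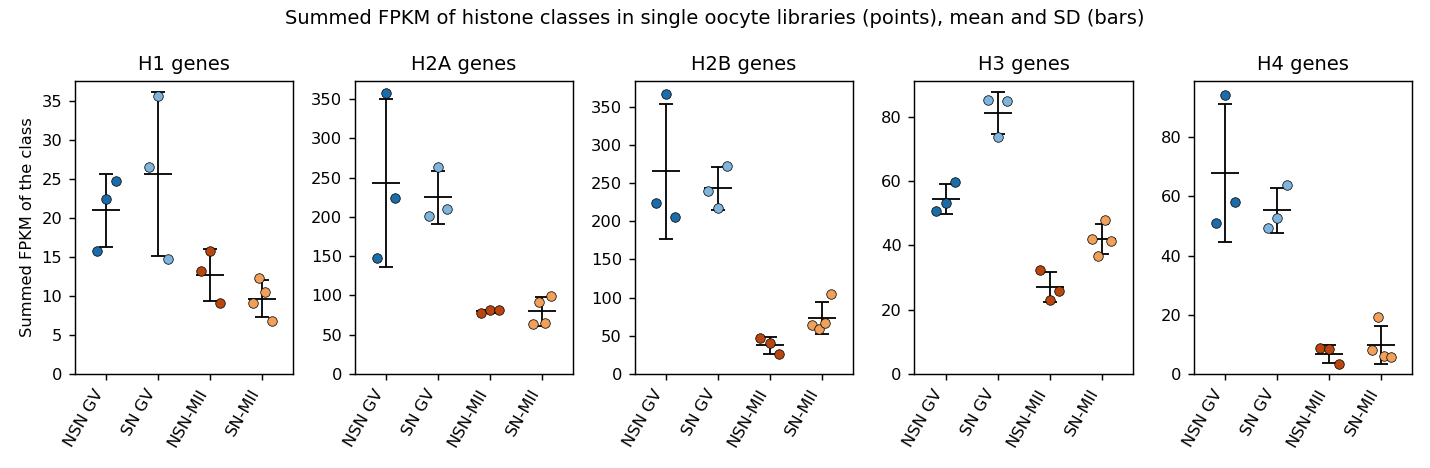
Summed FPKM of each histone class (y axis, from 0) by group (x axis, NSN GV and SN GV followed by NSN-MII and SN-MII). Points are single libraries, and bars give the mean and SD. H4 genes lay between 49.5 and 94.4 FPKM at GV and between 3.19 and 19.2 at MII, and H3 genes were lower in NSN than in SN libraries at both stages.

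A few genes carried most of the signal. Of the 69 members, 12 had an FPKM above 0 in all 13 libraries, 5 were at 0 in all of them, 30 had a mean of at least 1 FPKM and 10 of at least 10 FPKM. Hist1h2bc made up 74.3% of the H2B sum at GV. Hist2h2aa1, one of the replication-dependent H2A copies, made up 44.5% of the H2A sum at GV, and Hist1h2aa, which encodes the germ cell H2A called TH2A, made up 63.4% of it at MII. Hist2h3b led the H3 genes with 42.8%, Hist1h4h the H4 genes with 52.2% and Hist1h1a the H1 genes with 61.7% of the class sum at GV.

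**Figure D2:**
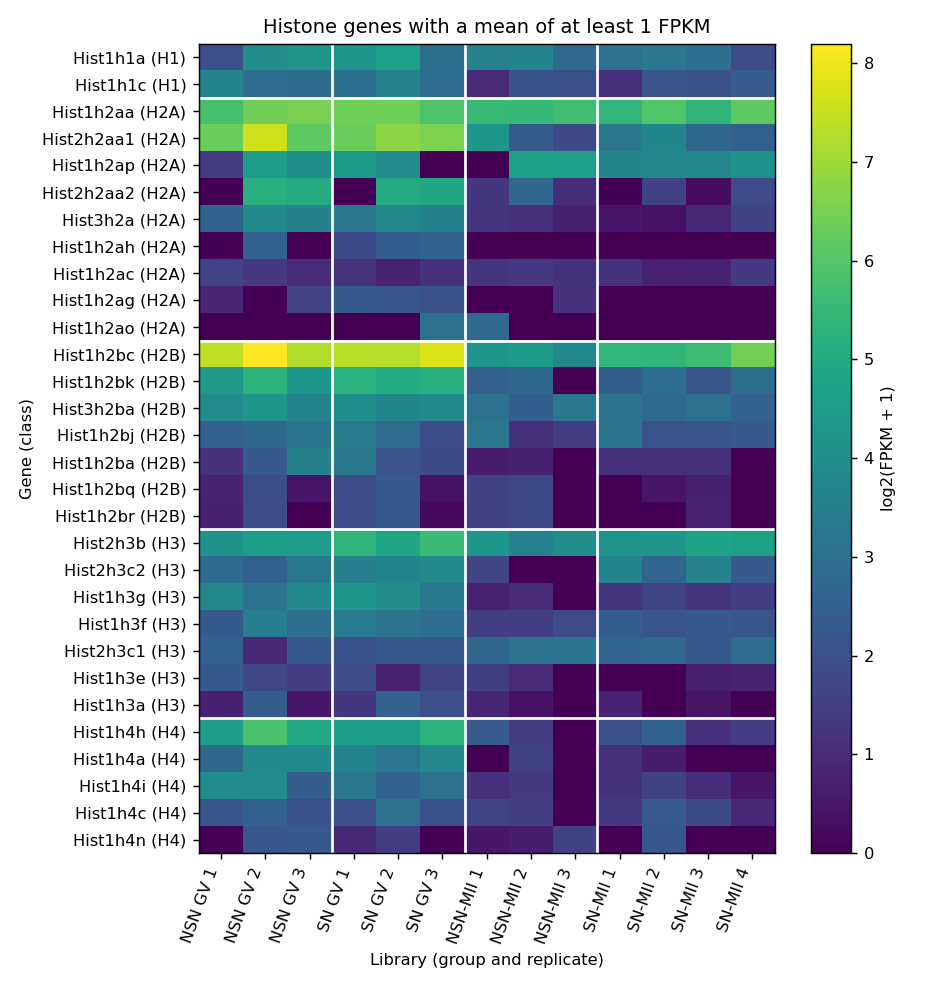
Levels of the 30 members with a mean of at least 1 FPKM, as log2(FPKM + 1) (colour), in the 13 libraries (columns, by group and replicate) and ordered by class and mean level (rows). Hist1h2bc and Hist2h2aa1 are bright in the 6 GV columns and darker in the 7 MII columns, while Hist1h2aa and Hist2h3b keep close to their GV colour.

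The comparison of MII with GV oocytes asks which of these stored mRNAs were lower or higher after maturation. Of the 69 members, 26 passed the filter on low counts, and 43 did not and were not tested. By quasi-likelihood F tests in edgeR, adjusted by Benjamini-Hochberg over 11375 genes, 16 of the 26 were lower at MII and 1 was higher. Over all genes tested, 68.6% were called in this comparison, 36.9% as lower and 31.7% as higher. The median log2 fold change was -1.68 over the 26 members and -0.10 over all genes tested. In 13 of the 26, no MII library reached the lowest GV library, against 27.7% of all genes tested. The members that passed the filter did so mostly through their GV libraries, so these counts do not stand for the 69. Without NSN-MII replicate 3, 30 members were tested and 20 called. Levels are relative to each library, and the loss of total mRNA per oocyte was not measured.

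H4 is the partner of H3 in the core tetramer, and its class sum had the ratio of 7.33 given above. Hist1h4h lay between 22.4 and 56.7 FPKM at GV (median 26.5) and between 0 and 5.09 at MII (median 1.77). No MII library came near the GV range, and the log2 fold change was -3.70 ± 0.53 (SE, adjusted p = 9.4e-06, edgeR). Hist1h4a had a median of 12.2 FPKM at GV (5.83 to 13.8) and was at 0 in 4 of 7 MII libraries, with a highest value of 2.09. It had the most negative log2 fold change of the members, -4.01 ± 0.81 (adjusted p = 0.00034, edgeR), but it passed the filter through its GV libraries. No MII library held more than 6.62 counts and 5 of 7 held 3 or fewer, and without NSN-MII replicate 2 the value went to -6.17. Hist1h4i ranged from 4.62 to 14.9 FPKM at GV and from 0 to 2.07 at MII, a change of -2.91 ± 0.57 (adjusted p = 0.00024, edgeR). Of the 13 H4 genes, 6 were tested and 4 were called lower. The other 2, Hist1h4c and Hist2h4, had log2 fold changes of -1.16 and 0.28 that did not pass the test.

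H2B pairs with H2A in the nucleosome. Hist1h2bc, the spliced gene, lay between 151.5 and 291.6 FPKM in GV oocytes (median 163.7) and between 13.2 and 87.3 in MII oocytes (median 39.8). Its ranges did not overlap, and its log2 fold change was -2.46 ± 0.24 (adjusted p = 1.2e-07, edgeR), with at least 102.7 counts in each library. Hist1h2bk, whose stem-loop and promoter are printed above, had a median of 34.0 FPKM at GV (19.3 to 38.6) and 4.66 at MII (0 to 7.17). It fell by 2.65 ± 0.47 on the log2 scale (adjusted p = 0.00010, edgeR). Hist1h2bh, at 0.94 to 2.86 FPKM at GV and 0 to 0.60 at MII, had a change of -2.80 ± 0.73 (adjusted p = 0.0027, edgeR), which differed from that of Hist1h2bk by less than its error. It rests on at most 8.14 counts in any MII library, and without SN-MII replicate 2 or NSN-MII replicate 2 it went to -3.65 or -3.48. Hist3h2ba moved least among the called H2B genes, from a median of 14.3 (11.7 to 18.7) to 7.23 FPKM (4.43 to 8.76), and its log2 fold change was -0.96 ± 0.32 (adjusted p = 0.013, edgeR). Of 18 H2B genes, 5 were tested and 4 were called lower, and in each of these 4 every GV library was above every MII library. Hist1h2ba, the H2B partner of TH2A called TH2B, was too low for the test. It was picked after its values were seen, lies next to Hist1h2aa on chromosome 13, and had a median of 3.64 FPKM at GV (1.24 to 10.9) and 0.64 at MII (0 to 1.21).

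Tagged H2B needs a word beside these values, because the study also describes H2B-mCherry mRNA injected with FBL–GFP for imaging. Whether the sequenced oocytes received it is not given in the sources used here. Reads of such an mRNA could be counted on H2B genes, and this was not tested. Fbl, whose reads may include the injected FBL–GFP mRNA, ranged from 11.8 to 183.6 FPKM at GV and from 4.71 to 68.1 at MII, and its log2 fold change between stages was -1.49 ± 0.49 (adjusted p = 0.012, edgeR).

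Among the H2A genes, Hist2h2aa1, Hist2h2aa2 and Hist3h2a were called lower, and the germ cell gene Hist1h2aa did not pass the test. Hist2h2aa1 lay between 69.8 and 194.1 FPKM at GV (median 87.1) and between 2.5 and 19.3 at MII (median 5.63), with no overlap. Its log2 fold change was -3.53 ± 0.40 (adjusted p = 8.7e-07, edgeR), or -4.16 without NSN-MII replicate 1. Hist1h2aa ranged from 54.6 to 89.9 FPKM at GV (median 83.1) and from 40.3 to 71.3 at MII (median 45.7). The ranges overlapped, and the change of -0.43 ± 0.25 did not pass the test (adjusted p = 0.14, edgeR), although limma on log2(FPKM + 1) called it lower (-0.58, adjusted p = 0.0096). That limma fit took FPKM as deposited, with totals higher at GV, and did not rescale them. Hist1h2ap showed a median of 15.2 FPKM at GV (0 to 21.4) and 12.95 at MII (0 to 24.1), a change of 0.40 ± 0.81 (adjusted p = 0.67, edgeR). Of 20 H2A genes, 6 were tested, 3 were called lower and 3 were not called. Hist3h2a, the called gene outside the Hist2 cluster, changed by -3.29 ± 0.41 (adjusted p = 2.3e-06, edgeR). The H2A sum without Hist1h2aa had a GV to MII ratio of 5.41, against 2.93 with it.

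Near-identical copies limit what can be said of single H2A genes. Hist2h2aa1 and Hist2h2aa2 share 1 coding sequence in the annotation, as do Hist1h2ao and Hist1h2ap. Hist1h2ap was listed at 0 in SN GV replicate 3 and NSN-MII replicate 1, the same libraries in which Hist1h2ao had 7.34 and 6.13 FPKM, and Hist1h2ao was at 0 in the other 11. The estimated counts thus placed nearly all reads of this pair on 1 copy in each of those libraries. With the copies summed, the first pair had a log2 fold change between stages of -3.50 ± 0.36 (adjusted p = 3.2e-07, edgeR), and the second of 0.35 ± 0.50 (adjusted p = 0.55). Of the 30 members with a mean of at least 1 FPKM, 29 held a 100-base window that another annotated gene shares, and in 13 more than 50% of the windows were shared. Strand was not used in the sources given. For the 26 members that overlap another gene, reads from the overlapping stretch thus cannot be told from those of the partner.

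H3 genes held the 1 member that was higher at MII. Hist1h3g had a median of 13.4 FPKM at GV (7.66 to 18.6) and 1.35 at MII (0 to 2.13). It had the most negative change of the class, -3.54 ± 0.53 (adjusted p = 1.6e-05, edgeR). Hist2h3b, by contrast, ranged from 17.1 to 46.5 FPKM at GV (median 24.8) and from 11.4 to 26.2 at MII (median 18.5), and its change of -0.45 ± 0.27 was not called (adjusted p = 0.14, edgeR), although limma on log2(FPKM + 1) called it at -0.59 (adjusted p = 0.0090). The FPKM totals behind this limma value were likewise higher at GV and not rescaled. Hist2h3c1 was the higher one, at 0.92 to 4.91 FPKM at GV (median 3.89) and 4.03 to 7.61 at MII (median 6.01). The stages overlapped, and the log2 fold change was 1.01 ± 0.32 (adjusted p = 0.010, edgeR). Its neighbour Hist2h3c2 was lower at MII, with a median of 3.97 FPKM (0 to 12) against 9.65 at GV (4.81 to 13.5), and changed by -1.67 ± 0.56 (adjusted p = 0.014, edgeR). Leaving out NSN-MII replicate 1 took this value to -4.48, since the other NSN-MII libraries were at 0. Of the 100-base windows of Hist2h3c2, 61.6% are also in Hist2h3c1 and in Gm20634, a feature that overlaps Hist2h3c1. Whether the division of reads between these copies bears on the opposite signs was not tested. Summed, Hist2h3b, Hist2h3c1 and Hist2h3c2 reached 41.8 ± 14.4 FPKM at GV and 30.0 ± 7.94 at MII. In counts, not scaled for library size, the same sum was 197 ± 57.2 at GV and 178 ± 35.8 at MII. Of 12 H3 genes, 6 were tested, 3 were called lower, 1 higher and 2 were not called.

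The linker histone genes were low. Hist1h1a ranged from 3.01 to 23.7 FPKM at GV (median 16.7) and from 2.67 to 12.04 at MII (median 7.51), and its log2 fold change of -0.73 ± 0.43 did not pass the test (adjusted p = 0.14, edgeR), but did so without NSN GV replicate 1 (-0.98, adjusted p = 0.027). Hist1h1c fell by 1.47 ± 0.36 on the log2 scale (adjusted p = 0.0016, edgeR), from 6.48 to 11.9 FPKM at GV down to 1.03 to 4.05 at MII. Hist1h1d had the most negative change of the class, -3.51 ± 0.82 (adjusted p = 0.0012, edgeR), on 9 to 25 counts in GV and 0 to 4 counts in MII libraries. Without SN-MII replicate 2 or NSN-MII replicate 2 it went to -4.94 or -4.24. Its low FPKM of 0.14 to 0.38 at GV is spread over an annotated model of 7425 bases. Hist1h1e, the next by level, stayed at or below 0.63 FPKM and was not tested. H1foo, the oocyte linker histone outside the clusters, stood at 4552 ± 656 FPKM at GV and 9549 ± 1077 at MII.

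**Figure D3:**
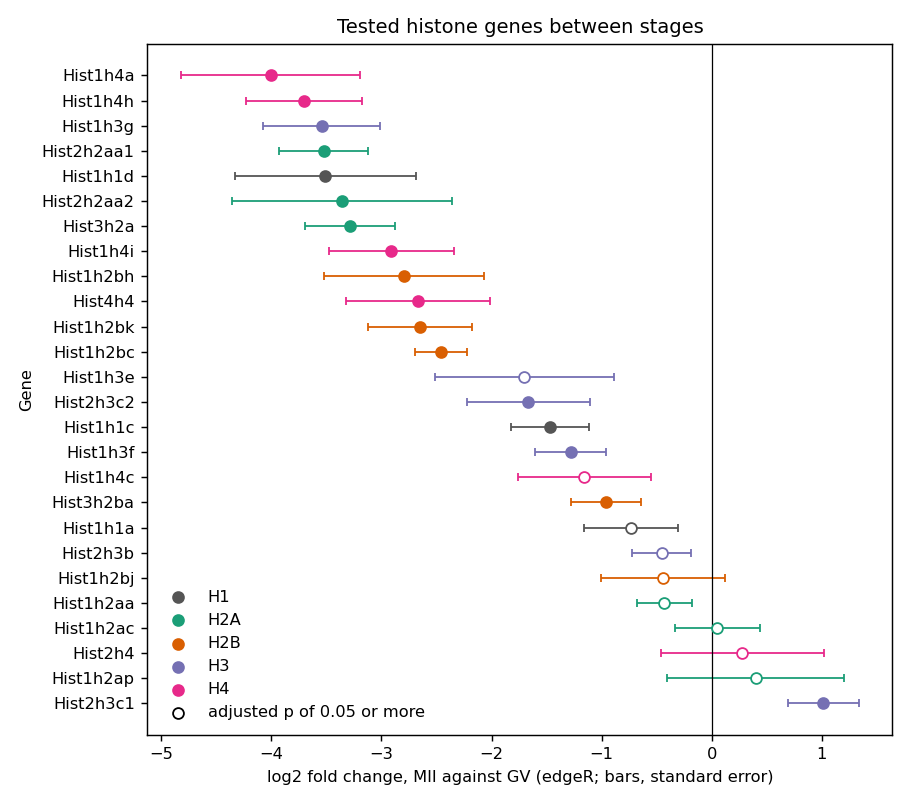
log2 fold change of MII against GV oocytes (x axis; points, edgeR estimates, and bars, standard error) for the 26 tested members (y axis), coloured by class. Filled points passed the adjusted p of 0.05: 16 lie left of 0 and Hist2h3c1 lies right of it at 1.01, and 3 open points also lie right of 0.

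Members were then grouped by how their annotated model ends. The 21 genes whose model ends within 100 bases of the stem-loop summed to 217 ± 77.7 FPKM at GV and 39.3 ± 7.51 at MII, and 4 of 6 tested were called lower. The 21 whose model runs farther summed to 75.6 ± 7.15 and 30.9 ± 4.66 FPKM, with 9 of 14 tested called lower and 1 higher. The 22 with no motif in the model summed to 155 ± 30.9 and 82.6 ± 12.5 FPKM, with 2 of 5 tested called lower. The 5 spliced genes, nearly all of it Hist1h2bc, summed to 193 ± 55.2 and 40.2 ± 24.2 FPKM. Each of the 4 kinds was thus lower at MII, by ratios of 5.52, 2.45, 1.88 and 4.79, and these ratios were not tested against each other. The called counts stand against 36.9% lower and 31.7% higher over all genes tested, so that 2 of 5 is near that share. By cluster, the Hist1 genes summed to 446 ± 82.8 FPKM at GV and 144 ± 32.9 at MII, and the Hist2 genes to 169 ± 53.2 and 41.6 ± 9.41.

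The comparison of NSN with SN GV oocytes asks whether the 2 chromatin types differ before maturation. None of the 25 members tested was called by edgeR's quasi-likelihood test or by DESeq2, and the share over all 10839 genes tested was 0.0%. Limma on FPKM, which tested 40 members among 14524 features, called none of the features either. At an unadjusted p under 0.05 by edgeR there were 2 of 25 members, against 1.75% of all genes, and both were H3 genes of the Hist2 cluster. They are Hist2h3b and Hist2h3c2, and 77.1% of the 100-base windows of Hist2h3b are also in Hist2h3c2. Reads may thus be divided between the 2, and they do not count as separate observations. Hist2h3b had 17.1, 22.4 and 21.8 FPKM in the 3 NSN GV oocytes and 39.4, 27.2 and 46.5 in the 3 SN GV oocytes. Every NSN library was below every SN library, with a log2 fold change of -0.89 ± 0.36 (unadjusted p = 0.037, adjusted p = 1, edgeR). Hist2h3c2 had 6.33, 4.81 and 8.84 FPKM in NSN and 10.5, 11.9 and 13.5 in SN GV oocytes. Its groups did not overlap either, and its change was -0.87 ± 0.37 (unadjusted p = 0.045, adjusted p = 1, edgeR). These 2 were the only tested members whose libraries did not overlap, all NSN below SN, against 3.22% of all genes tested.

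The H3 class sum includes both of these genes. It was 50.6, 53.2 and 59.7 FPKM in the NSN GV oocytes and 73.6, 84.8 and 85.3 in the SN GV oocytes, a ratio of 0.671, or 0.782 without Hist2h3b. The lowest SN oocyte was above the highest NSN oocyte. Without Hist2h3b and Hist2h3c2, the sums were 27.1, 26.0 and 29.1 FPKM in NSN and 35.5, 34.5 and 24.8 in SN GV oocytes, which overlapped. The other classes overlapped, with NSN to SN ratios of 0.819 for H1, 1.08 for H2A, 1.09 for H2B and 1.23 for H4. For Hist1h2bc, the log2 fold change of 0.23 ± 0.28 (adjusted p = 1, edgeR) does not show that the types were alike. All 25 estimates lay between -0.89 and 0.65.

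After maturation, NSN-MII and SN-MII oocytes were compared in the same way, and Hist1h2bc had the lowest p of the members. The 3 NSN-MII oocytes had 18.6, 20.9 and 13.2 FPKM, and the 4 SN-MII oocytes 41.4, 39.8, 48.8 and 87.3. The highest NSN-MII oocyte held 20.9 FPKM and the lowest SN-MII oocyte 39.8, and the counts behind the groups were 102.7 to 182.3 and 352.7 to 805.3. The log2 fold change was -1.70 ± 0.32 with an adjusted p of 0.067 by edgeR, just short of the threshold. Under other settings the adjusted p ranged from 7.2e-05 (DESeq2) to 0.25 (replicate block), and the gene was called by DESeq2, without the filter on low counts (0.0055), by limma on FPKM (0.035), in 1 fit of all 13 libraries (0.023) and without NSN-MII replicate 3 (0.038). It remained lower in NSN-MII in each of them, at -1.33 to -1.84. Fbl held 4.71 to 22.9 FPKM in NSN-MII and 11.9 to 68.1 in SN-MII oocytes, a difference of -1.26 ± 0.62 (adjusted p = 0.56, edgeR). At GV it differed by 1.31 ± 0.65, with NSN above SN (adjusted p = 1). Its part in the H2B values was not tested.

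None of the 16 members tested was called between the MII types by edgeR, against 0.259% of 10028 genes. At an unadjusted p under 0.05 there were 2, Hist1h2bc and Hist2h3c2, where the share over all genes was 9.38%. Hist2h3c2 had 2.3, 0 and 0 FPKM in the NSN-MII and 12, 5.33, 11.4 and 3.97 in the SN-MII oocytes. The groups did not overlap, and its log2 fold change was -3.41 ± 1.03 (adjusted p = 0.25, edgeR), a value that rests on NSN-MII replicate 1. Without it the NSN-MII libraries were all at 0, and the fitted value of -8.93 is then no bound on the change. Limma on FPKM called it at -2.50 (adjusted p = 0.023). Hist1h3f was also without overlap. This H3 copy was picked for that after its values were seen, and had 1.85, 1.78 and 2.78 FPKM in NSN-MII and 4.50, 3.47, 3.86 and 3.56 in SN-MII oocytes, and its change was -0.87 ± 0.48 (adjusted p = 0.63, edgeR). These 3 of 16 were all lower in NSN-MII, and 4.62% of all genes tested were without overlap in that direction.

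**Figure D4:**
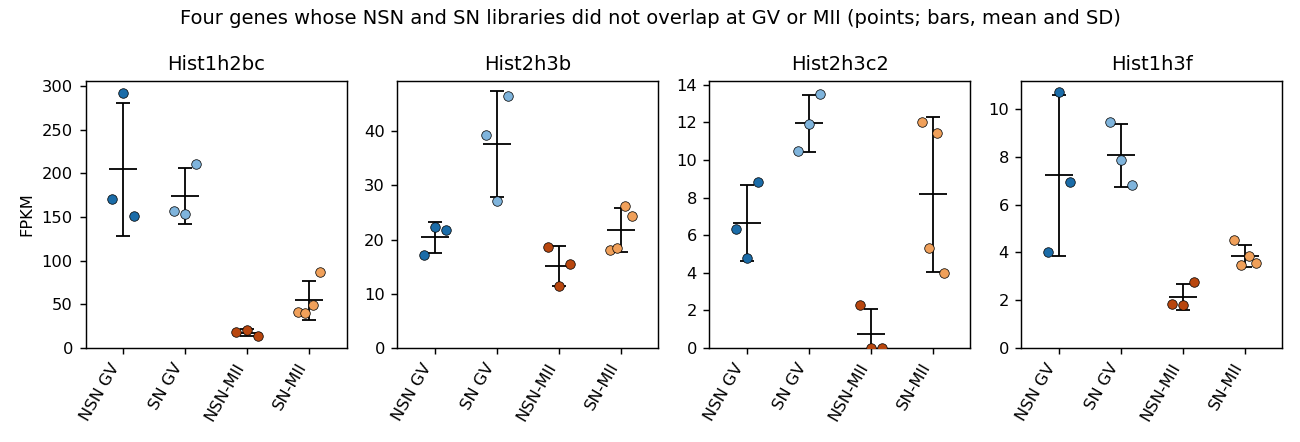
FPKM (y axes, from 0) of the 4 tested members whose NSN and SN libraries did not overlap at 1 stage or both, in the 4 groups (x axes). Members too low for the test between types are not drawn, though some also did not overlap. Among them, Hist1h3g held 0 to 0.97 FPKM in NSN-MII and 1.35 to 2.13 in SN-MII oocytes. Points are single libraries, and bars give the mean and SD. Hist2h3b is separated at GV, Hist2h3c2 at both stages, and Hist1h2bc and Hist1h3f at MII, where NSN-MII oocytes of Hist1h2bc reach at most 20.9 FPKM and SN-MII oocytes at least 39.8.

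Among the class sums, H2B and H3 were lower in NSN-MII. H2B genes summed to 46.8, 40.5 and 25.5 FPKM in NSN-MII and 63.6, 59.2, 67.0 and 104.5 in SN-MII oocytes, a ratio of 0.511. Without Hist1h2bc that ratio was 1.04, so the class sum differed through 1 gene. H3 genes lay between 23.1 and 32.3 FPKM in NSN-MII and between 36.6 and 47.9 in SN-MII oocytes, a ratio of 0.645, and 0.590 without Hist2h3b. The H3 copies of the Hist2 cluster together held 18.8 to 26.5 FPKM in NSN-MII and 29.8 to 41.7 in SN-MII, after 28.1 to 34.5 in NSN GV and 43.0 to 64.0 in SN GV. NSN libraries were thus below SN libraries at both stages for this sum, which includes Hist2h3b and Hist2h3c2. The FPKM sum depends on how reads were divided among the 3 copies, whose models differ in length (488, 1825 and 1020 bases). Their summed counts do not, and were 110.5 to 179.5 in NSN GV and 226.0 to 273.6 in SN GV oocytes. At MII these counts, not scaled for library size, were 137.5 to 150.4 in NSN-MII and 180.7 to 218.2 in SN-MII oocytes. Reads may still have been divided with the overlapping features Gm20628 and Gm20634, which were listed at 0.08 to 0.74 and 0 to 1.76 FPKM. Without Hist2h3b and Hist2h3c2, the H3 genes summed to 10.4 to 11.7 FPKM in NSN-MII and 10.2 to 12.9 in SN-MII oocytes, which overlapped. H2A genes did not separate, at 77.8 to 81.3 and 63.4 to 99.8 FPKM, nor did H1 and H4 genes.

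Whether the difference between types changed with the stage was tested as an interaction. None of 26 members was called by edgeR, against 0.0176% of 11375 genes, and 2 members had an unadjusted p under 0.05, against 5.33% of all genes. Hist1h2bc had an interaction of -1.94 ± 0.46 on the log2 scale (unadjusted p = 0.00066, adjusted p = 0.31, edgeR), which DESeq2 called (adjusted p = 0.032). Over the other settings its adjusted p lay between 0.093 and 0.86. The other was Hist2h3c2, with an estimate of -2.53.

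Genes that make, read or remove histone mRNA were taken as fixed lists. Of 23 genes of histone 3′ end formation and transcription, 11 were higher at MII and 7 lower, with a median log2 fold change of 0.26 against -0.10 for all genes tested. Over all genes tested, 31.7% were higher and 36.9% lower, the shares against which the counts of each list are to be read. Slbp, which binds the stem-loop printed above, stood at 1005 ± 139 FPKM at GV and 2421 ± 322 at MII, a change of 1.44 ± 0.16 (adjusted p = 5.8e-07, edgeR), and every MII oocyte was above every GV oocyte. Casp8ap2 (1.70), which encodes the processing factor FLASH, and Cpsf2 (1.60), a subunit of the cleavage complex, rose most, and Lsm10 fell most. Lsm10, a ring protein of the U7 snRNP that guides histone mRNA cleavage, went from 238.0 to 354.3 FPKM at GV to 3.48 to 22.3 at MII (-4.27 ± 0.30, adjusted p = 2.1e-09, edgeR). Snrpb, a shared snRNP core protein, had the next fall (-2.94). Of 9 tested genes for translation, export and decay of histone mRNA, 5 were higher, led by the RNA surveillance genes Smg1 (1.89) and Upf1 (1.61), and Ctif (-1.57) was lower.

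Histone chaperones and replacement histones held called genes in both directions, as did all genes tested (31.7% higher and 36.9% lower). Of 23 chaperone and nucleosome assembly genes, 11 were higher at MII, led by Ubn1 (1.64), of the HIRA complex, and Rbbp7 (1.44), and 7 were lower, led by Chaf1b (-4.99), of the chromatin assembly factor CAF-1, and Npm2 (-2.25), the oocyte nucleoplasmin. Of 11 tested replacement and linker histones outside the clusters, H1foo (1.22), H3f3b (1.01) and Cenpa (0.37) were higher and 5 were lower, with H2afy2 (-4.53) and H2afj (-2.50) the most. None of the genes in these lists was called between NSN and SN GV oocytes, where edgeR called no gene. Between the MII types, H3f3a alone was called, 1 of the 2 genes for the replacement histone H3.3. It had 211.5, 244.9 and 109.8 FPKM in NSN-MII and 653.5, 664.9, 591.5 and 792.0 in SN-MII oocytes, so that the groups did not overlap, and its log2 fold change was -1.98 ± 0.24 (adjusted p = 0.0082, edgeR). Of the 13 oocyte markers, 3 were higher at MII, with Gdf9 (0.83) and Oosp1 (0.63) leading, and 8 were lower, with Figla (-4.25) and Zp3 (-3.84) leading. Of 8 tested cumulus and granulosa cell markers, Kitl (1.26) and Cyp19a1 (1.04) were higher at MII and Krt8 (-3.53) and Cyp11a1 (-3.34) lower.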

How the data were processed

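SMART-seq2 libraries of 13 single oocytes were sequenced, and the authors trimmed reads with Trim Galore 0.4.4, aligned them to mm10 with Bowtie2 2.3.5 and quantified genes with RSEM 1.2.28, and used DESeq2 1.20.0 (methods and the submitters' processing notes). The estimated counts were deposited by the authors in 1 table per stage, as RSEM shares reads among genes, and between 59.1% and 82.9% of a library's members with a count had a value that was not whole (tolerance 0.004). FPKM values, also deposited by the authors, came in 1 table of all libraries, scaled by model length and library size. No column was left unused.

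Members and gene lists were chosen with earlier results of these data known. Estimated counts were rounded, filtered (filterByExpr), scaled by TMM and tested in edgeR 4.0.16 by the quasi-likelihood test (R 4.3.3), NSN against SN within each stage and MII against GV over all 13 libraries, with Benjamini-Hochberg adjustment over all genes tested and a threshold of 0.05. The standard error was the log2 fold change divided by the root of F. The fits were tested on simulated data. Alternatives were DESeq2 1.42.0, RLE size factors, no filter, a replicate block, limma 3.58.1 on log2(FPKM + 1), all libraries in 1 fit, each library left out, and, added after the data were seen, identical copies summed. All 69 members were in the count tables, so no test on FPKM alone was needed. Replicates of a group differed by far more than sampling noise, so none was counted as a copy. No library carries UMIs, and counting error is not the spread between oocytes.

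By rule, members named are the 3 with the highest mean FPKM per class, those called between types, and Hist1h2bc and Hist2h3c2, which the study lists. The largest called rise and fall between stages per class are also named by rule. Hist2h2aa2, Hist3h2a, Hist1h2ao, Hist1h4c, Hist2h4, Hist1h2ba and Hist1h3f are named outside this rule. Of other genes, Slbp, Fbl, the 2 largest called rises and falls of each list and those called between types are named. Sequences were read from GENCODE M21 (GRCm38) and the RefSeq promoter table.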

Additional observations from a re-analysis of the deposited data

Results flagged for a closer look

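In the SN-MII group, the only one of 4 libraries, 23 values were examined for a library far from the others. They were 5 class sums and the 18 members that meet the naming rule. Of these values, 3 stood out by Dixon's criterion, which chance alone meets in about 1 of 20 groups. SN-MII replicate 4 had 17.4 FPKM of Hist1h2ap, against 12.11 to 12.95 in the other 3. SN-MII replicate 2 had 0.60 FPKM of Hist1h2bh, against 0 to 0.08, and 0.05 FPKM of Hist1h1d, against 0 in the others. The last 2 rest on a few counts.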

How the results depend on the processing

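Between stages, 17 members were called, and the other settings called 16 to 24 (16 with identical copies summed, 18 by DESeq2, 22 without the filter and 24 by limma on FPKM), or 17 to 21 when 1 library was left out. Between GV types, every setting called 0. Between MII types, where edgeR called 0, DESeq2, the fit without a filter and the fit of all 13 libraries called 1 each, limma on FPKM called 2, and leaving out 1 library gave 0 to 1. DESeq2 called 1 interaction, and leaving out 1 library gave 0 throughout. Leaving out the leading member took the GV to MII ratio of H2A to 5.41, the NSN to SN ratio of H3 at GV to 0.782 and that of H2B at MII to 1.04. For the log2 fold changes of single members, 384 of 394 alternatives kept the direction and the call, 10 gained a call and 0 turned. The labels do not say whether replicate numbers pair the oocytes. Correlations of same-numbered libraries lay between -0.421 and 0.208. They cannot decide it, because differently numbered libraries were not correlated for comparison. With the replicate block, 17 members were called between stages and 0 in each of the other comparisons, and Hist1h2bc between MII types had a log2 fold change of -1.33 (adjusted p = 0.25, edgeR). Only SN-MII has a replicate 4, so the block fitted that library on its own and it added nothing to the comparison. None of the members chosen for naming changed its call under the block. Low counts limit most members: 43 of 69 were not tested between stages.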
